A study of Mus musculus with 6 samples.

Results

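Glucose enters most tumour cells through the transporter encoded by Slc2a1 and is broken down to pyruvate and lactate by the enzymes of glycolysis. The 10 genes described here are Slc2a1, the hexokinases Hk1 and Hk2, the phosphofructokinases Pfkl and Pfkp, the aldolase Aldoa, the phosphoglycerate kinase Pgk1, the enolase Eno1, the pyruvate kinase Pkm and the lactate dehydrogenase Ldha. They were taken by symbol from a table of 28368 genes, and all 10 had enough counts to be tested among the 18049 genes kept. Aldoa appeared on 2 rows, and the row with the higher mean count was kept (the other held 27 to 77 counts per library).

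Poly(A) RNA of mouse tumours was sequenced, with 3 libraries from mice under MS-DF-MS therapy, taken at 12 h, and 3 control libraries from mice without treatment. The series title describes implanted depots that release an agonist of the innate immune adaptor STING and then an inducer of apoptosis. The labels give no strain, sex, age, drug name or tumour type, and no collection time for the controls. No group had an empty implant. Nothing says that each library was a separate animal, so the spread between libraries may be partly technical.

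Glycolysis splits glucose into pyruvate and yields ATP without oxygen. Hexokinase traps glucose in the cell by phosphorylation, phosphofructokinase makes the committed step, and lactate dehydrogenase regenerates the NAD+ that the pathway needs. Many tumours run the pathway at a high rate even when oxygen is present, and the hypoxia-inducible factor HIF-1 is a known activator of many of these genes.

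The libraries held 57017043 to 66634551 counts, so precision for genes this abundant was set by the spread between libraries. Transcripts of pigment cells were abundant in both groups, with 7 markers summing to 21010 to 23200 CPM (counts scaled to library size) in control and 21636 to 23502 CPM in treated libraries. Treated 3 stood apart on the first principal component, at 72.9 against -37.9 to 13.3 for the other 5 libraries. Treated 1 had the highest marker sums for keratinocytes, skeletal muscle, red blood cells, adipocytes, neutrophils, monocytes and macrophages, and endothelial cells. It did not for pigment cells, fibroblasts or T cells. In treated 1, 4 keratinocyte markers summed to 80.1 CPM against at most 0.140 CPM elsewhere, and 6 skeletal muscle markers to 101 CPM against 1.94 to 48.9 CPM. Adipocyte markers summed to 82.6 CPM in treated 1 and 26.4 to 45.9 CPM elsewhere, and monocyte and macrophage markers to 206 CPM and 60.3 to 184.8 CPM. The endothelial sums of treated 1 and 2 were close, at 109.9 and 109.1 CPM. Red blood cell markers summed to 1471 CPM in treated 1, 486 and 262 CPM in treated 2 and 3 and 98.0 to 249.6 CPM in the controls. In bulk tissue, fewer cells of a type and less RNA per cell cannot be told apart.

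Levels per length were compared with the FPKM values deposited by the authors, which divide by gene length. In the control tumours the order fell into a high and a low tier. Pgk1, whose product makes ATP from bisphosphoglycerate, stood highest at 1524 ± 61.0 FPKM (SD, n = 3), the 17th highest of all 28368 genes. Aldoa, which cleaves fructose bisphosphate, followed at 1207 ± 64.7 FPKM and Eno1, which makes phosphoenolpyruvate, at 1061 ± 35.6 FPKM. Ldha at 939 ± 15.7 FPKM and Pkm, which makes pyruvate and ATP, at 903 ± 29.7 FPKM overlapped in their library values. All 5 were thus among the 34 highest genes. The transporter and the enzymes of the early steps were lower: Pfkl at 90.8 ± 3.79, Slc2a1 at 60.0 ± 1.61, Hk2 at 53.7 ± 0.985, Hk1 at 33.4 ± 1.78 and Pfkp at 32.3 ± 0.419 FPKM. Among neighbours in this order, Ldha and Pkm and then Hk1 and Pfkp overlapped between control libraries, and the other pairs did not. The 10 genes together took 2.50 ± 0.0593% of all counts in control and 2.46 ± 0.137% in treated tumours.

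In treated against control tumours, no gene of the 10 passed edgeR's quasi-likelihood test at a Benjamini-Hochberg adjusted p under 0.05. The background was 1.36% of 18049 tested genes that rose and 0.249% that fell. Among the 554 genes at or above the lowest of the 10 in mean log2 CPM, 2.53% rose or fell. The median absolute log2 fold change was 0.09 over those 554 genes and 0.07 over the 10. At an unadjusted p under 0.05, 3 of the 10 were higher (Slc2a1, Hk2 and Pfkp) and 0 were lower, against 9.12% and 6.9% of all tested genes. The groups did not overlap for 2 of the 10, Hk2 and Pfkp, both higher in treated tumours, against 12% of all tested genes that were higher without overlap and 11.2% that were lower. The median log2 fold change was 0.06 over the 10 genes and -0.003 over all tested genes; it was 0.12 over the 10 genes without treated 1 and -0.01 without treated 2. Other tools gave other counts: DESeq2 called Slc2a1 alone (754 of 15237 genes rose, 4.95%), and limma-voom with sample quality weights called Slc2a1 and Pfkp (3.33% of all genes rose).

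**Figure D1:**
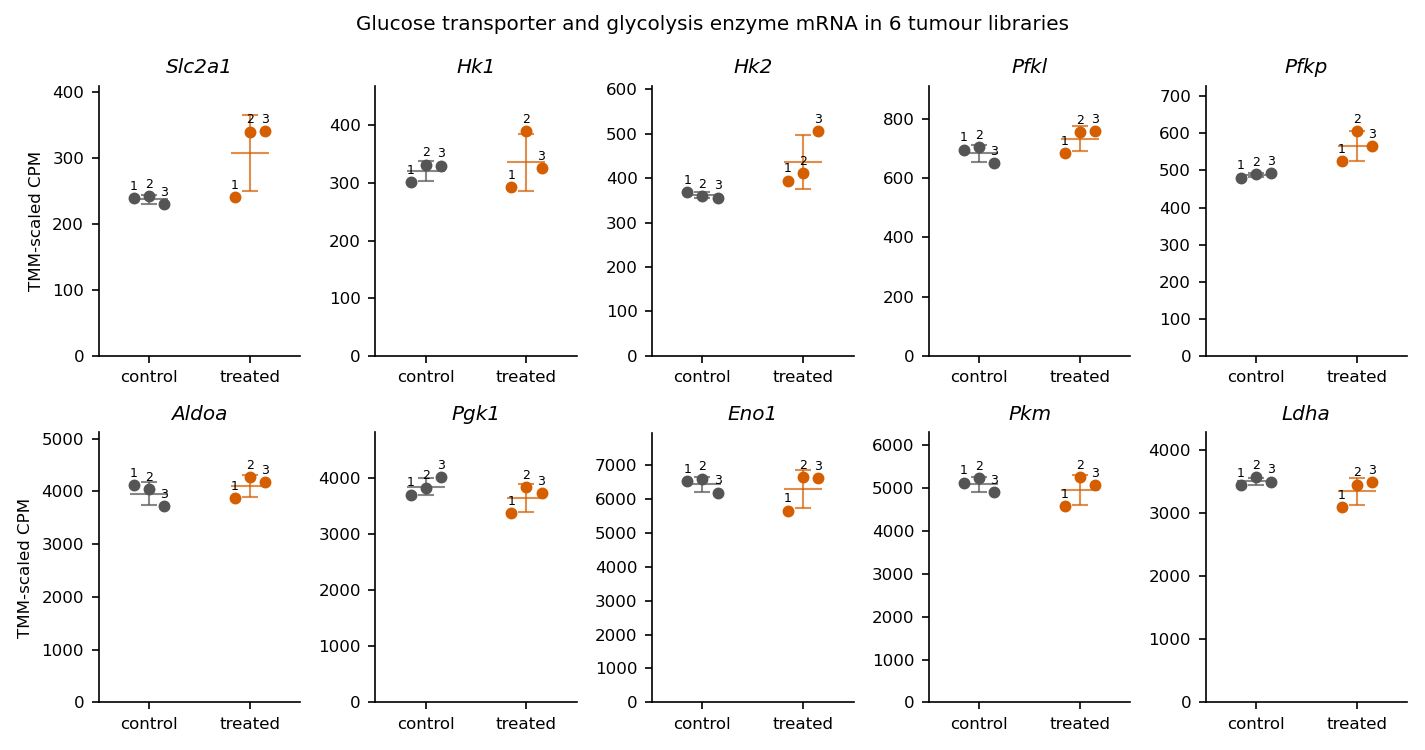
TMM-scaled CPM (y axis, from 0) of the 10 genes in each control (grey) and treated (orange) library, with library numbers above the points and the mean and SD over 3 libraries as a bar with whiskers. Slc2a1 sits at 340.3 and 341 CPM in treated 2 and 3 and at 241 CPM in treated 1, next to the controls at 230.0 to 243 CPM, while Pgk1, Eno1, Pkm and Ldha are lowest in treated 1.

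Slc2a1 (ENSMUSG00000028645) encodes GLUT1, the transporter for basal glucose uptake, and lies on chromosome 4 from 119108711 to 119137983. It had 239, 243 and 230.0 CPM in controls 1, 2 and 3 and 241, 340.3 and 341 CPM in treated 1, 2 and 3. Treated 2 and 3 were well above every control, whereas treated 1 lay within the control range. The log2 fold change was 0.37 ± 0.13 SE, a difference of 29.6% with an interval at 95% of 5.66 to 59.0%, and the edgeR adjusted p was 0.215. The call turned on treated 1 and on the tool. Without treated 1 the log2 fold change was 0.52 and Slc2a1 passed (edgeR adjusted p = 0.0051, with 1.24% of genes called as higher), and DESeq2 (adjusted p = 0.0403) and limma-voom with sample quality weights (adjusted p = 0.0474) called it with all libraries. Over 13 other settings its adjusted p ran from 0.0051 to 0.470, and without treated 3 it was 0.358.

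The hexokinases catalyse the same reaction, and both sit on mitochondria in many cells. Hk2 (chromosome 6, 82725025 to 82774454), the inducible form common in tumours, had 369, 360.2 and 356 CPM in the controls and 395, 411 and 506 CPM in treated 1, 2 and 3. All treated libraries were above all controls, with treated 3 the farthest. The difference was 20.9% (interval 3.93 to 40.6%, log2 fold change 0.27 ± 0.09 SE, edgeR adjusted p = 0.219), and without treated 3 the log2 fold change was 0.15. Hk1 (chromosome 10, 62268855 to 62379908), the form most tissues share, had 301, 332 and 330.3 CPM in the controls and 293, 390.4 and 326 CPM in the treated libraries. Its groups overlapped, with treated 2 highest and treated 1 lowest of all libraries (log2 fold change 0.07 ± 0.10 SE, edgeR adjusted p = 0.819). Without treated 2 its sign turned, to -0.05.

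Hk2 made up 61.7 ± 1.69% of the summed FPKM of Hk1 and Hk2 in control and 65.0 ± 4.52% in treated tumours (SD, n = 3). Its share was 63.6, 60.8 and 60.6% in controls 1, 2 and 3 and 65.8, 60.1 and 69.0% in treated 1, 2 and 3, so the groups overlapped. The log2 ratio of Hk2 to Hk1 counts differed by 0.21 between the groups (exact permutation test, two-sided, p = 0.4, where 3 against 3 libraries can give no p below 0.1). Without treated 3 that difference was 0.08, and without treated 2 it was 0.36.

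Phosphofructokinase acts as a tetramer that can mix its isoforms. Pfkp (chromosome 13, 6579768 to 6648777), the platelet form, had 481, 489.7 and 493 CPM in the controls and 525, 606 and 566 CPM in the treated libraries. Every treated library was above every control, and the controls lay close together. The difference was 16.0% (interval 4.72 to 28.5%, log2 fold change 0.21 ± 0.06 SE), with an edgeR adjusted p of 0.167, and limma-voom with sample quality weights called it (adjusted p = 0.0384). Pitrm1 overlaps Pfkp on the opposite strand with a mean of 9664 counts per library, and the sources used here do not say whether counting used strand. Pfkl (chromosome 10, 77986947 to 78009807), the liver form, had 696, 705 and 651 CPM in the controls and 683, 755 and 759 CPM in the treated libraries. Its groups overlapped through treated 1 (log2 fold change 0.10 ± 0.06 SE, edgeR adjusted p = 0.494).

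Pfkp made up 26.2 ± 1.01% of the summed FPKM of Pfkl and Pfkp in control and 27.8 ± 0.739% in treated tumours (SD, n = 3). The share was 25.6, 25.7 and 27.4% in the controls and 27.7, 28.6 and 27.1% in the treated libraries. The groups overlapped, and the log2 ratio of Pfkp to Pfkl counts differed by 0.11 (exact permutation test, two-sided, p = 0.2, with 0.1 the smallest p possible). The liver form was thus the more abundant per length in all 6 libraries.

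**Figure D2:**
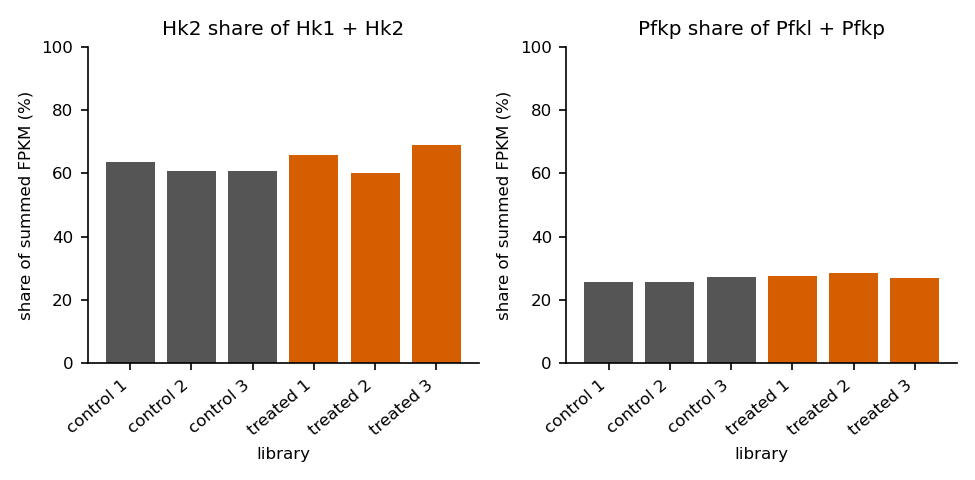
Share of summed FPKM (y axis, percent, from 0 to 100) held by Hk2 of Hk1 plus Hk2 (left) and by Pfkp of Pfkl plus Pfkp (right) in each control (grey) and treated (orange) library. The groups overlap in both panels, with Hk2 between 60.1 and 69.0% and Pfkp between 25.6 and 28.6%.

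Aldoa (chromosome 7, 126795234 to 126800751) had 4122, 4041 and 3718 CPM in the controls and 3876, 4264 and 4174 CPM in the treated libraries. The groups overlapped, and the interval of the difference ran from -5.49 to 13.7% (log2 fold change 0.05 ± 0.06 SE, edgeR adjusted p = 0.729). Of the 10 genes it was the last in pathway order with a higher treated mean, but the intervals of Aldoa, Hk1 and Pfkl all spanned 0. A trend along the pathway was not tested.

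The 4 genes of the later steps had log2 fold changes between -0.08 and -0.03, and the interval of each spanned 0. Pgk1 (chromosome X, 106187100 to 106203699) had 3713, 3833 and 4017 CPM in the controls and 3376, 3845 and 3739 CPM in the treated libraries. Treated 1 was the lowest library, and treated 2 and 3 lay within the control range. The interval for Pgk1 was -13.9 to 4.35% (log2 fold change -0.08 ± 0.06 SE, edgeR adjusted p = 0.595). Eno1 (chromosome 4, 150236721 to 150248879) had 6525, 6594 and 6183 CPM in the controls and 5648, 6630 and 6602 CPM in the treated libraries, the highest counts of the 10 genes. Its treated libraries held both the lowest and the highest value (log2 fold change -0.03 ± 0.07 SE, interval -12.2 to 8.97%, edgeR adjusted p = 0.869).

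Pkm (chromosome 9, 59656368 to 59679375) encodes the isoforms M1 and M2, which differ by an exon and cannot be told apart in counts per gene. It had 5134, 5241 and 4905 CPM in the controls and 4577, 5252 and 5076 CPM in the treated libraries. Treated 1 was again lowest, and the groups overlapped (log2 fold change -0.04 ± 0.06 SE, interval -11.3 to 7.26%, edgeR adjusted p = 0.827). The annotated gene Gm49759 overlaps Pkm on the same strand with a mean of 10089 counts per library. Ldha (chromosome 7, 46841475 to 46855627) had 3442, 3565 and 3501 CPM in the controls and 3098, 3454 and 3491 CPM in the treated libraries. Treated 1 lay below all others (log2 fold change -0.07 ± 0.06 SE, interval -12.6 to 4.44%, edgeR adjusted p = 0.632). The intervals are per gene and not adjusted for the number of genes. Without treated 1 the signs of Eno1 and Pkm turned, to log2 fold changes of 0.04 and 0.02.

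The treated libraries differed among themselves in a similar way for most of the 10 genes. Against the control mean, the 10 genes had a median log2 CPM difference of -0.08 for treated 1, 0.13 for treated 2 and 0.06 for treated 3, with -0.03 to 0.03 for the controls. The medians over all tested genes were 0.014, -0.003 and 0.005 for treated 1, 2 and 3. In treated 1, 7 of the 10 genes lay below the control mean, though Pfkl only by -0.00015 and Aldoa by -0.03. In treated 2 there were 2 (Pgk1 and Ldha) and in treated 3 there were 3 (Pgk1, Pkm and Ldha). Slc2a1 had the largest positive difference in treated 2 and 3, at 0.52 in both, and Pgk1 the largest negative difference in treated 1 and 3, at -0.19 and -0.04. Treated 1 is the library with the most marker RNA of keratinocytes, muscle, red blood cells, adipocytes, and monocytes and macrophages. Its neutrophil markers summed to 54.3 CPM, against 5.36 to 16.3 CPM in the other treated and 3.07 to 4.63 CPM in the control libraries. The part of these cells in the values was not tested.

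**Figure D3:**
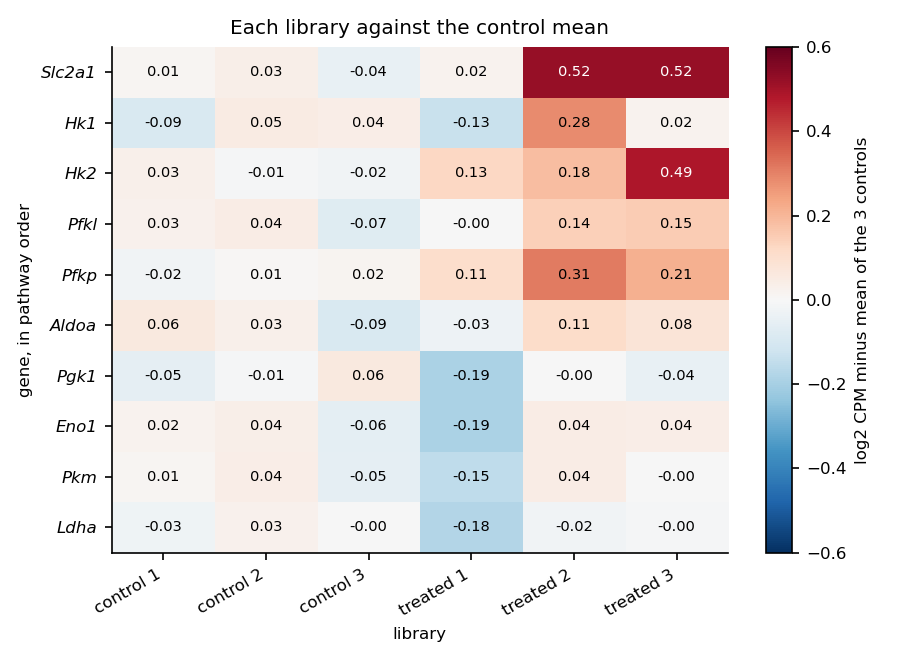
Log2 CPM of each gene (rows, in pathway order) in each library (columns) minus the mean of the 3 controls, from blue (lower) to red (higher), with the value printed in each cell. Slc2a1, Hk2 and Pfkp are red in treated 2 and 3, and Pgk1, Eno1, Pkm and Ldha are blue in treated 1, from -0.19 to -0.15.

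Some of these genes have near-identical copies in the genome that can share reads. Annotated transcripts with at least 95% identity over at least 300 coding bases were found for Eno1, Pgk1, Pkm and Ldha, and for none of the other 6 genes. Counts on such copies were 9.92% of the sum of gene and copies for Eno1 (mainly Eno1b), 2.87% for Pgk1 (mainly Pgk1-rs7), 0.994% for Pkm and 0.108% for Ldha. Eno1b (log2 fold change -0.09 ± 0.08 SE, edgeR adjusted p = 0.648) and Pgk1-rs7 (-0.07 ± 0.09, edgeR adjusted p = 0.762) did not pass the test. With copies added to their parent, none of the 10 genes passed edgeR's test and the log2 fold changes were -0.08 for Pgk1, -0.04 for Eno1, -0.04 for Pkm and -0.07 for Ldha.

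**Figure D4:**
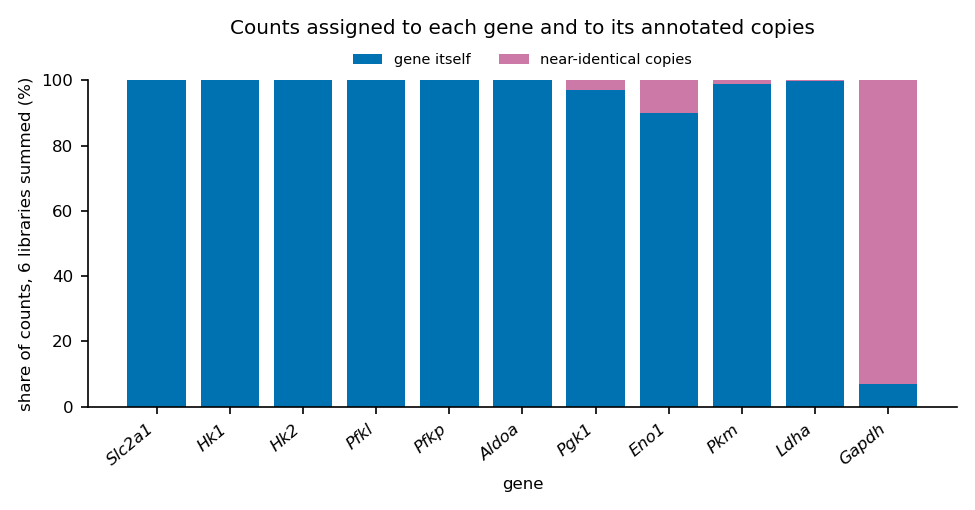
Share of counts over 6 libraries (y axis, percent) on each gene (blue) and on its annotated near-identical copies (pink), for the 10 genes and for Gapdh. Copies hold 9.92% for Eno1 and at most 2.87% for the other 9 genes, and 93.0% for Gapdh.

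Of the other enzymes of the pathway, 14 of 16 were tested, and 0 rose and 0 fell. Unadjusted, 0 were higher and 1 was lower, against 9.12% and 6.9% of all tested genes. The lower gene was Pfkm, the muscle form of phosphofructokinase. It had 68.4, 72.5 and 70.2 CPM in the controls and 61.5, 63.1 and 63.2 CPM in the treated libraries, lower in all of them (log2 fold change -0.17 ± 0.06 SE, edgeR adjusted p = 0.223). Pfkm was the 1 gene of the 14 without overlap between groups, against 11.2% of all tested genes that were lower without overlap. Tpi1, which interconverts the triose phosphates, had the highest CPM on a single row and differed by -0.01 ± 0.05 (edgeR adjusted p = 0.938), and Bpgm, which makes 2,3-bisphosphoglycerate, by 0.13 ± 0.07 (0.446). The median over the 14 was -0.02. Gapdh cannot be read from its own row, since 75 copies in the table held 93.0% of the counts.

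Lactate leaves and enters cells through monocarboxylate transporters, and 2 of them differed in opposite directions without passing the test. Slc16a1 (MCT1), which serves uptake and export, had 116, 118 and 139.9 CPM in the controls and 90.2, 97.0 and 95.1 CPM in the treated libraries, lower in each of them (log2 fold change -0.40 ± 0.09 SE, edgeR adjusted p = 0.0721). Slc16a3 (MCT4), the exporter of glycolytic cells, had 237, 241 and 235 CPM in the controls and 249, 286 and 312 CPM in the treated libraries, higher in each (0.25 ± 0.08, edgeR adjusted p = 0.214). Bsg, their shared chaperone, was the most abundant of the list and overlapped between groups (-0.07 ± 0.06, 0.581). Of 10 tested genes of hexose and lactate transport 0 rose and 0 fell, with a median of -0.07. Unadjusted, 1 was higher (Slc16a3) and 1 lower (Slc16a1), against 9.12% and 6.9% of all tested genes. Without overlap between groups, the same 1 was higher and the same 1 lower, against 12% and 11.2% of all tested genes.

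Among 11 tested regulators of glycolytic flux, 0 rose and 0 fell. Unadjusted, 3 were higher and 2 lower, against 9.12% and 6.9% of all tested genes. Each of these was without overlap between groups, against 12% of all tested genes that were higher and 11.2% that were lower. The median was 0.06. Txnip, which restrains glucose uptake, had 75.4, 85.5 and 80.4 CPM in the controls and 141, 102 and 88.7 CPM in treated 1, 2 and 3 (log2 fold change 0.46 ± 0.16 SE, edgeR adjusted p = 0.218). Txnip was above every control in each treated library. It was highest in treated 1, where Slc2a1 was at the control level, but was also above the controls in treated 2 and 3, where Slc2a1 was higher. A link between Txnip and Slc2a1 was not tested. Pdk4, which switches off pyruvate dehydrogenase, was low at 0.342 to 1.12 CPM in control and 1.29 to 3.61 CPM in treated libraries (1.75 ± 0.53, edgeR adjusted p = 0.172). Pdk1, the most abundant of the list, differed by 0.06 ± 0.12 (0.857).

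The side branches showed no calls. The pentose phosphate pathway, which diverts glucose 6-phosphate to NADPH and ribose, had 0 of 8 genes that rose or fell and a median of -0.10. At an unadjusted p under 0.05, 1 gene was lower, against 6.9% of all tested genes. That gene was Pgd (-0.13 ± 0.05, edgeR adjusted p = 0.278). Tkt of the same pathway had 366 to 371 CPM in control and 315 to 353 CPM in treated libraries, lower in each (-0.14 ± 0.06, edgeR adjusted p = 0.317). Without overlap between groups, 3 of the 8 were lower and 0 higher, against 11.2% and 12% of all tested genes. They were Pgd, Tkt and, named after its values were seen, Pgls (-0.09 ± 0.07, edgeR adjusted p = 0.560). Gluconeogenesis and glycogen genes had 0 of 13 that rose or fell and a median of -0.01. Gbe1, the glycogen branching enzyme, was at -0.33 ± 0.14 (edgeR adjusted p = 0.317), Pck2 at 0.27 ± 0.12 (0.315) and Ugp2 at -0.05 ± 0.08 (0.814). Unadjusted, 0 were higher and 0 lower. Gbe1 was the 1 gene of the 13 without overlap between groups, against 11.2% of all tested genes that were lower without overlap. Genes for pyruvate entry into mitochondria had 0 of 8 that rose or fell and a median of -0.06, and 1 of the 8 had a log2 fold change above 0. Mpc1, a subunit of the pyruvate carrier, was at -0.19 ± 0.08 (edgeR adjusted p = 0.311), Mpc2 at -0.11 ± 0.10 (0.672) and Dld at -0.01 ± 0.07 (0.959). Mpc1 was the 1 gene of the 8 that was lower at an unadjusted p under 0.05, against 6.9% of all tested genes. It was also the 1 without overlap between groups, against 11.2% that were lower without overlap.

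HIF-1 consists of an oxygen-regulated subunit, encoded by Hif1a, and a constant partner. Hif1a differed by -0.13 ± 0.08 (edgeR adjusted p = 0.486), and of 10 tested transcription factors and HIF regulators 0 rose and 0 fell. At an unadjusted p under 0.05, 4 of the 10 were higher and 0 lower, against 9.12% and 6.9% of all tested genes. All 4 were without overlap between groups, against 12% of all tested genes that were higher without overlap. They were Epas1 and Egln3, and, named after their values were seen, Egln1 (0.35 ± 0.10, edgeR adjusted p = 0.166) and Mlx (0.15 ± 0.06, 0.307). Epas1, which encodes HIF-2 alpha and is also known for its expression in endothelium, had 18.1 to 20.1 CPM in control and 22.7 to 32.3 CPM in treated libraries (0.60 ± 0.14, edgeR adjusted p = 0.0959). Of 5 endothelial markers 3 rose by edgeR's test (Pecam1, Cdh5 and Tie1, with log2 fold changes of 1.30, 1.11 and 0.90), while Kdr at 0.28 and Tek at 0.004 did not pass. The 5 summed to 50.4 to 54.8 CPM in control and 95.6 to 109.9 CPM in treated libraries, and the part of endothelial cells in Epas1 was not tested. Egln3, a HIF prolyl hydroxylase that HIF itself induces, differed by 0.66 ± 0.16 (edgeR adjusted p = 0.10).

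HIF targets outside glycolysis, a list chosen with earlier results of these data known, had 2 of 8 that rose and 0 that fell. The shares of all tested genes were 1.36% and 0.249%. The median over the list was 0.46. At an unadjusted p under 0.05, 6 of the 8 were higher and 0 lower, against 9.12% and 6.9% of all tested genes. Without overlap between groups, 4 were higher, against 12% of all tested genes. Ddit4, an inhibitor of mTORC1, rose from 87.4, 90.9 and 85.5 CPM to 136, 152 and 170.5 CPM (log2 fold change 0.80 ± 0.09 SE, edgeR adjusted p = 0.00402). P4ha1, a collagen prolyl hydroxylase, rose from 153, 158 and 156 CPM to 243, 219 and 199.9 CPM (0.50 ± 0.08, edgeR adjusted p = 0.0221). The call of P4ha1 was lost without each control and without treated 2 (edgeR adjusted p up to 0.137). Bnip3, a mitophagy receptor, differed by 0.03 ± 0.13 (edgeR adjusted p = 0.933). The other targets are named after their values were seen. Adm, which encodes the vasodilator adrenomedullin, had 13.2 to 14.0 CPM in the controls and 19.6, 32.6 and 44.5 CPM in treated 1, 2 and 3 (1.24 ± 0.26, edgeR adjusted p = 0.0671). Ankrd37 had 3.98 to 4.91 CPM in the controls and 7.14, 7.47 and 9.91 CPM in the treated libraries (0.84 ± 0.19, edgeR adjusted p = 0.0851). Both lay above every control in each treated library, treated 1 included. Vegfa had 217 to 223 CPM in the controls and 217, 292 and 358 CPM in treated 1, 2 and 3, and Ndrg1 had 129.5 to 138 CPM and 127, 203 and 211 CPM. Vegfa and Ndrg1 were near the control level in treated 1 and above it in treated 2 and 3, and neither passed the test (edgeR adjusted p = 0.267 and 0.285). Car9, a carbonic anhydrase and another HIF target, was lower in treated 1 and 2, at 153 and 253 CPM against 290.0 to 332 CPM in the controls, and at 297 CPM in treated 3 (-0.42 ± 0.21, edgeR adjusted p = 0.375).

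**Figure D5:**
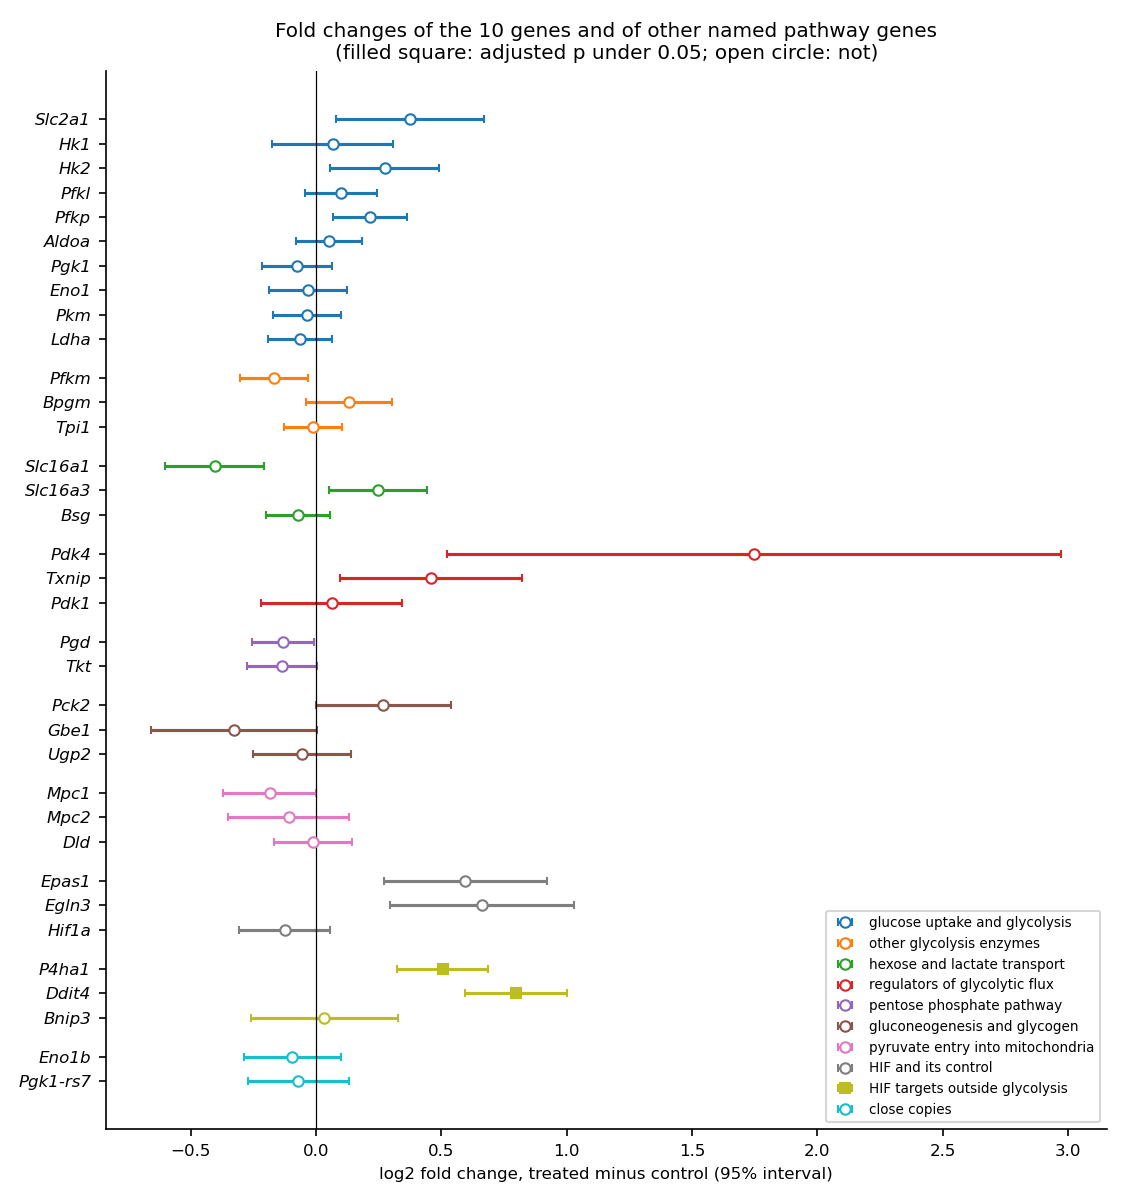
Log2 fold change of treated minus control tumours (x axis) with its interval at 95% for the 10 genes and for other named pathway genes, coloured by list, with filled squares for an edgeR adjusted p under 0.05. Ddit4 at 0.80 and P4ha1 at 0.50 are the only filled squares, and the 10 genes lie between -0.08 and 0.37.

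HIF-1 binds DNA at a core that reads ACGTG or GCGTG, and the 250 bases before the RefSeq starts were searched for both forms on both strands. Of the 10 genes 6 held ACGTG in at least 1 window, against 18.5% of 27025 genes, and 6 held GCGTG, against 30.9%, as matches of letters only. All 10 held either form in at least 1 window, against 41.5% of genes, and some genes have several windows. Per window, 7 of the 17 windows of the 10 genes held ACGTG, against 16.6% of 32851 windows. Windows of a gene can overlap, and the same ACGTG of Aldoa was counted in both of its windows that held a match. For Hk1, Aldoa and Pkm, 1 window each held neither form. Base content was not matched between the 10 genes and all genes, and binding of HIF-1 was not tested. Ldha held 5 matches to ACGTG in 1 window, some of them overlapping on opposite strands. The windows of the 3 genes with the smallest p and of Pgk1, the most abundant per length, are shown to set them side by side, 5′ to 3′ on the gene's strand, with ACGTG, or CACGT where it lies on the other strand, in capitals. They come from RefSeq on GRCm38.p6. They lie at chr4:119108495-119108744 (plus strand) for Slc2a1, chr6:82774455-82774704 (minus strand) for Hk2, chr13:6648772-6649021 (minus strand) for Pfkp and chrX:106186850-106187099 (plus strand) for Pgk1.
Slc2a1: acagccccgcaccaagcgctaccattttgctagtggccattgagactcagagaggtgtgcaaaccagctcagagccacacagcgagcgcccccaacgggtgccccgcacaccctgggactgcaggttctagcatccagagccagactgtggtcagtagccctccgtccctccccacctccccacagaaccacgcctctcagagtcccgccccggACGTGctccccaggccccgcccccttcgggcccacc
Hk2: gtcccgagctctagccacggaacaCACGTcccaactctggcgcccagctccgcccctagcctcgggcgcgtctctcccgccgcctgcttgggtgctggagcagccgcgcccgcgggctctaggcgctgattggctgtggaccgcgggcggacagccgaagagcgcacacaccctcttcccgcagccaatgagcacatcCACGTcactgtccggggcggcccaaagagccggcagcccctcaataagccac
Pfkp: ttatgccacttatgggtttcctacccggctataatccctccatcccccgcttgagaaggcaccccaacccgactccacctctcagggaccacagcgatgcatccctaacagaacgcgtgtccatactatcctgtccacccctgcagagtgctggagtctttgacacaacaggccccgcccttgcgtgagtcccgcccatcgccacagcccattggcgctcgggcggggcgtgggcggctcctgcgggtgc
Pgk1: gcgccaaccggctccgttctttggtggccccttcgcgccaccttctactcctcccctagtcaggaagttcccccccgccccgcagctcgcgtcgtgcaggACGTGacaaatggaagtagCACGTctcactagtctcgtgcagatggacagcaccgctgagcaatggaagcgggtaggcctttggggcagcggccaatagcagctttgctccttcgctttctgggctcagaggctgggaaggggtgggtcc
Slc2a1 held 1 match to ACGTG, centred 34 bases before the start, and Hk2 held 2, at 224 and 50 bases before it. Pgk1 also held 2, at 148 and 129 bases before its start, and Pfkp held no ACGTG in this window. Of GCGTG, left in lower case, Pfkp held 3 matches, Slc2a1 held 1, and Hk2 and Pgk1 held 0.

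The genes whose levels over the 6 libraries were most like the mean of the 10 genes, each scaled to its own mean and SD, were Bbs4, Hadha, Arap2, Ddx28, Dcbld2, Cdk14, Pvr and Rab11b-ps2. Their Pearson correlations with that mean ran from 0.976 to 0.995, as a description over 6 libraries that share their groups and scaling, and they are the highest of 10088 genes searched.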

How the data were processed

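Per the labels' protocols, poly(A) RNA was fragmented, second strands were marked with dUTP and removed, and paired reads were sequenced. Tools named in the submitters' processing notes are fastp, StringTie and edgeR. The aligner, build, annotation, strand setting and versions are, in the sources used here, not given. The authors deposited raw counts and FPKM per gene and library, per the file headers, in 1 table. Coordinates are the table's, and GENCODE M21 (GRCm38) holds 99.7% of its identifiers, with start and end equal for 90.0%.

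Counts were tested in R 4.3.3 with edgeR 4.0.16: filterByExpr (minimum count 10, minimum total count 15), TMM scaling (factors 0.974 to 1.01), glmQLFit and glmQLFTest on the group with all 6 libraries, two-sided, Benjamini-Hochberg over 18049 genes, threshold 0.05. CPM are TMM-scaled. An SE is the log2 fold change divided by the square root of F, and intervals use the test's degrees of freedom. Log2 CPM used a prior count of 2. Alternatives used DESeq2 1.42.0, limma 3.58.1, other factors, other filters, a replicate block and leaving out each library; adding copies (blastn 2.17.0) was chosen after seeing the data. The fit was also run on simulated data, with the outcome not reported here. FPKM were used for levels and isoform shares. No pair of libraries of a group agreed within sampling noise (chi-square per gene 18.1 to 63.5).

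The 10 genes and the lists were chosen with earlier results of these data known. Named are the 10 genes, of each other list the called genes, the most abundant gene and the 2 genes lowest in p, and the 8 genes most like the mean of the 10, searched among those with mean log2 CPM 3 or more. Any further gene is marked as named after its values were seen. The GCGTG search was added after seeing the data.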

Additional observations from a re-analysis of the deposited data

How the results depend on the processing

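No gene of the 10 fell under any alternative. The number that rose was 0 with edgeR's other factors, both other filters, the replicate block and copies added, 1 with DESeq2, 2 with limma-voom with sample quality weights, and 0 to 1 with each library left out (1 without treated 1). Of all genes, 754 rose and 367 fell with DESeq2, 601 and 191 with limma-voom, 123 and 14 with the replicate block, and 94 to 308 and 3 to 39 with a library left out, against 246 and 45. Without a filter 10 fell. Of the other pathway genes 9 rose and 1 fell with DESeq2, 7 and 1 with limma-voom, 1 rose with the block and 1 to 7 with a library left out, against 2 and 0. Signs turned for Hk1 (-0.051 to 0.16 with a library left out), Eno1 (-0.068 to 0.042) and Pkm (-0.073 to 0.021), and the cause was not tested. For the isoform shares the log2 ratio difference kept its sign, from 0.079 to 0.36 for hexokinase and 0.085 to 0.16 for phosphofructokinase, with 0.21 and 0.11 by sign flips over replicate pairs (exact p = 0.5 for both). Under the replicate block the log2 fold change of Slc2a1 was 0.36 (edgeR adjusted p = 0.296) and P4ha1 lost its call (edgeR adjusted p = 0.0831). Deviations of same-numbered libraries from their group means correlated at 0.09, -0.16 and -0.11 across genes. Treated 1 correlated best with control 1, treated 2 with control 3 and treated 3 with control 2. Such deviations balance out within each group, so these values cannot settle whether the libraries were paired.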

Other observations

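Gapdh, the glycolytic enzyme between aldolase and phosphoglycerate kinase and a common reference gene, is split over many rows of the table. Its own row had 688, 735 and 866 CPM in the controls and 452, 1002 and 1049 CPM in treated 1, 2 and 3, with a log2 fold change of 0.13 ± 0.28 SE (edgeR adjusted p = 0.871), an SE larger than that of any of the 10 genes. Annotated copies with at least 95% identity over at least 300 coding bases numbered 78, of which 75 were in the table. The copies held 90.9 to 95.7% of the summed counts per library, with Gm7336 alone at 526302 counts over 6 libraries against 304937 on Gapdh itself. With the copies added, Gapdh had a control mean of 11323 ± 384 CPM and a treated mean of 11430.1 ± 813 CPM (SD, n = 3), with a log2 fold change of 0.01 ± 0.06 SE (edgeR adjusted p = 0.941). On that sum Gapdh exceeded Eno1, which stood at 7160.0 ± 239 CPM in control tumours with its copies added. The summed values were computed after the split had been seen.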
